A study of Mus musculus with 1 sample.

Results

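The 6 Kruppel-like factor genes Klf1, Klf2, Klf3, Klf4, Klf6 and Klf13 were followed across the cell classes of mouse bone marrow progenitors. They were taken by symbol, each matched 1 row, and they are 6 of the 17 genes with a Klf symbol among the 32285 genes counted. Together they held 59194 of the 151852381 unique molecular identifiers (UMIs, which count each captured RNA molecule once) in the cells kept. All of them had enough UMIs for the comparisons between classes.

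Control marrow was read as 1 single-cell RNA-seq library, after a sort for cells that lack lineage markers and carry Kit, among which are stem cells and early progenitors of the blood. The mice were of the C57BL/6 strain and carried Brd9 fl/fl alleles, which per the study's methods lacked the Mx1-Cre transgene, so that Brd9 was not deleted. They had received 3 doses of 20 mg/kg of pIpC, an inducer of interferon, 8 weeks before the cells were taken. The labels describe a transplant of CD45.2(+) Brd9fl/fl marrow into CD45.1(+) CD45.2(-) recipients, the methods describe primary mice, and which applies was not settled. The number of mice pooled was not given in the sources used here. Brd9-deleted cells are not analysed here, and every comparison is between classes of cells within this library. With 1 library there were no replicates and no test was run. All intervals are exact 95% intervals that cover counting error only.

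Kruppel-like factors are transcription factors that bind GC-rich and CACCC elements through zinc fingers at their carboxyl end. Because the zinc fingers are alike, members can bind the same elements, and the rest of the protein decides whether a member recruits co-activators or co-repressors. Klf1 (erythroid Kruppel-like factor) drives globin and red cell membrane genes, Klf3 recruits CtBP co-repressors and is itself a target of Klf1, Klf4 acts in monocyte development, Klf2 is known for T cell quiescence and for endothelium, Klf6 is a broadly expressed, rapidly induced member, and Klf13 is a broadly expressed member first studied in T cells.

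In GENCODE M21 on GRCm38, Klf1 lies at chr8:84901928-84905291 and Klf2 at chr8:72319033-72321656, both on the plus strand. Klf3 lies at chr5:64803388-64832901 and Klf6 at chr13:5861482-5870394, also on the plus strand, and Klf4 at chr4:55527143-55532466 and Klf13 at chr7:63886351-63938915, on the minus strand. The sequence just upstream is shown for the erythroid pair, Klf1 and Klf3, and for Klf4, the gene that led in monocyte-like cells, because CACCC and GATA elements are the sites of erythroid factors. Each run is 100 bases in the direction of transcription, ends just before the earlier of the RefSeq and GENCODE starts (for Klf4 the RefSeq start, which lies upstream of the GENCODE gene model), and comes from the RefSeq promoters on GRCm38.p6. Capitals mark CACCC or its complement GGGTG, and the GATA words (AGATAA or TGATAA, or either with G as its last letter) or their complements.
Klf1, chr8:84901828-84901927, plus strand: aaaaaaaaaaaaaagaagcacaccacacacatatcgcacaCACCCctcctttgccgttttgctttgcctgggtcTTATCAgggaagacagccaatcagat
Klf3, chr5:64803288-64803387, plus strand: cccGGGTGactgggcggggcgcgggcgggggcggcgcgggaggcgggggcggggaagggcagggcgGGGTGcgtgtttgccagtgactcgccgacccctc
Klf4, chr4:55532476-55532575, minus strand: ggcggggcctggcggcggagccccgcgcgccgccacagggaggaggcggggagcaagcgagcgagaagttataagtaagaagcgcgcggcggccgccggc
Over the 250 bases before the RefSeq start, both strands searched, Klf3 had 5 CACCC matches, Klf1, Klf2 and Klf13 had 1 each, and Klf4 and Klf6 had 0; 51.3% of the 27025 mouse promoters held at least 1. Among the 6 genes only Klf1 held a GATA word, against 27.1% of all promoters. The PU.1 word GAGGAA and the cyclic AMP response element TGACGTCA had no match in any of the 6, against 23.1% and 1.62% of all promoters. These matches describe letters and are not evidence of binding.

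Cells were sorted into classes by marker genes that include none of the 6 factors. Each cell was thinned at random to 5000 UMIs, and it joined a class when at least 3 of the class's markers were seen and at least 2 more than of any other class. The 7 classes described held 4956 of 7645 cells: 554 HSC-like (hematopoietic stem cell), 237 lymphoid-primed progenitor-like, 453 megakaryocyte-like, 1314 erythroid-like, 390 basophil or mast cell-like, 1077 monocyte-like and 931 neutrophil-like. Another 24 cells fell into 4 classes too small to describe, and 2665 were ungated. A class is a range of a marker count and not a discrete type: from 10.7% (erythroid-like) to 40.5% (lymphoid-primed progenitor-like) of its cells lay at the limit. The names were checked against the 10 genes of highest fold in each class, which held 3 to 7 of the class's own markers and, for the lymphoid-primed progenitor-like class alone, 2 of another list, Ly6d and Cox6a2. Monocyte-like cells held a median of 6 monocyte and 3 neutrophil markers. Median depth ran from 8369 UMIs in HSC-like to 31952 in erythroid-like cells.

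The factors differed in the class where each was highest. Klf1 and Klf3 were highest in erythroid-like cells, Klf4 in monocyte-like cells, Klf6 in basophil or mast cell-like cells, and Klf2 in monocyte-like and HSC-like cells, which did not differ beyond counting error, while Klf13 differed little anywhere. Levels are UMIs per 1000000 UMIs of a class (CPM). The ratio of the highest to the lowest class was 86.8 for Klf1 (68.5 to 111.6), 62.5 for Klf4 (51.8 to 76.1), 29.3 for Klf2 (25.1 to 34.5), 27.2 for Klf6 (24.3 to 30.5), 5.67 for Klf3 (5.04 to 6.41) and 1.67 for Klf13 (1.56 to 1.79). Neutrophil-like cells were the lowest class for Klf1, Klf3, Klf6 and Klf13, and erythroid-like cells for Klf2 and Klf4. For Klf4 the order of these 2 classes rested on the gate: neutrophil-like cells had the lower fold under 4 of the 10 alternatives, at 0.0194 against 0.0341 with a lead of 3 markers and at 0.0134 against 0.0355 without thinning. For Klf1 and Klf13 the lowest class did not differ from the next beyond counting error. The ratio to neutrophil-like cells was 1.19 in monocyte-like cells for Klf1 (0.863 to 1.66) and 1.03 in HSC-like cells for Klf13 (0.899 to 1.17).

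**Figure D1:**
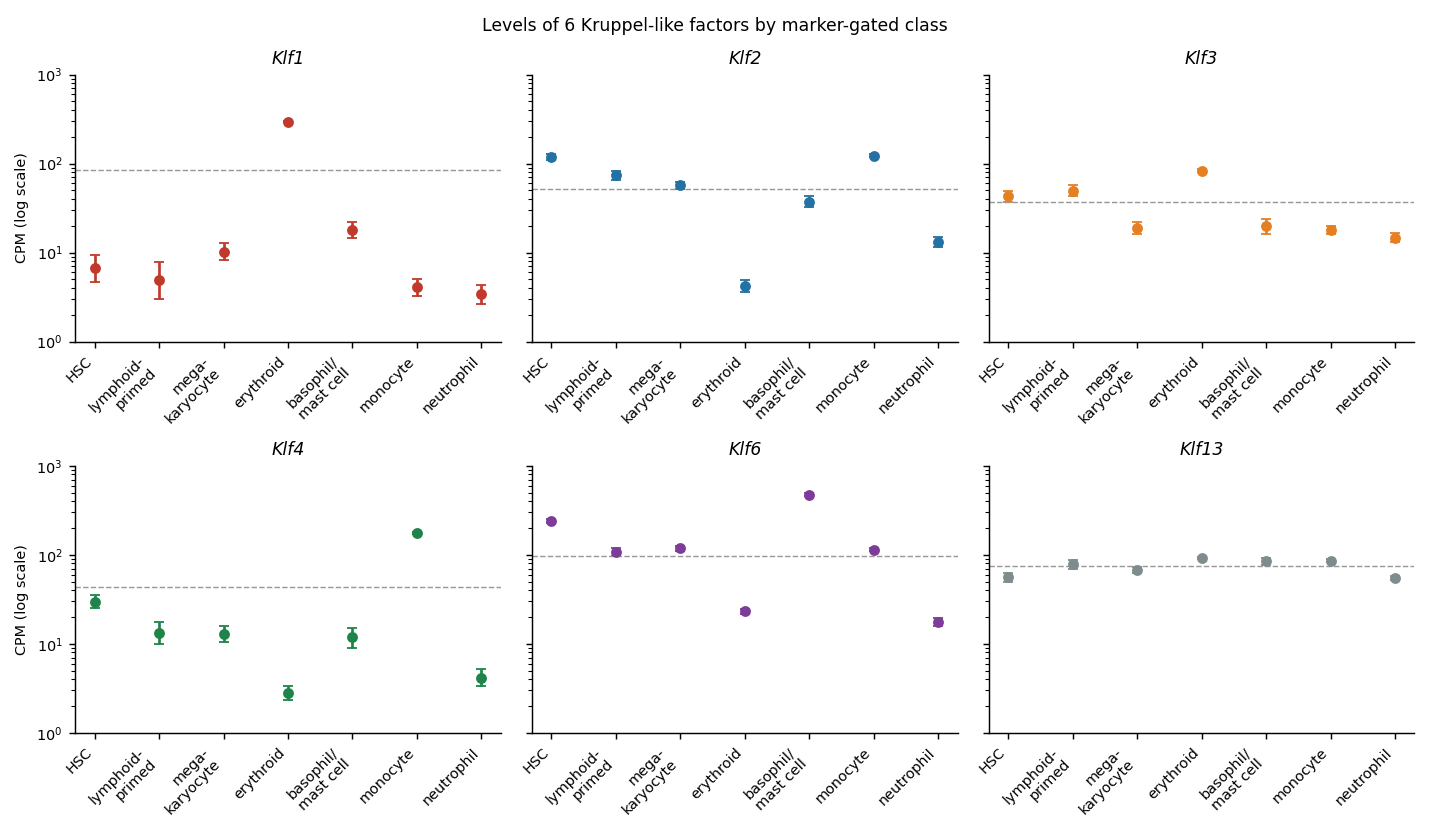
Level of each factor in CPM (log scale) in the 7 marker-gated classes, with exact 95% Poisson intervals, and the level over all cells kept as a dashed line. Klf1 and Klf4 each stand out in 1 class, at 297 and 176 CPM, and Klf13 stays between 54.9 and 91.7 CPM.

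For comparisons, a class was set against all other cells kept, and a gene was called higher or lower when the fold passed 1.5 either way and its interval lay past 1. The same rule was applied to the 13479 genes with at least 50 UMIs. All other cells include the other classes, so a gene high in 1 class can be called lower in the rest. Klf1 was called lower in basophil or mast cell-like cells at 18.1 CPM, above the 14.6 CPM of ungated cells. Of the 18 pairs of a factor with the erythroid-like, monocyte-like or HSC-like class, 6 were called higher and 6 lower. Among all genes, the share called higher and lower was 16.5% and 38.2% in erythroid-like cells, 10.4% and 23.8% in monocyte-like cells, and 35.5% and 15.8% in HSC-like cells.

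In erythroid-like cells Klf1 and Klf3 were called higher, Klf2, Klf4 and Klf6 lower, and Klf13 neither. Klf1 stood at 297 CPM (291 to 302), against 18.1 in basophil or mast cell-like, 10.3 in megakaryocyte-like, 6.76 in HSC-like, 4.97 in lymphoid-primed progenitor-like, 4.08 in monocyte-like and 3.42 in neutrophil-like cells. No other class came within 10-fold of the erythroid-like level, and the next, the basophil or mast cell-like class, was 16.4-fold lower (13.5 to 20.2). From HSC-like cells downward, neighbours in that order did not differ beyond counting error. Against all other cells the fold was 30.8 (29.0 to 32.8). In cells thinned to 5000 UMIs, Klf1 was seen in 71.5% of erythroid-like cells and in 1.18% to 6.92% of cells of the other classes (94.5%, and 5.59% to 18.2%, without thinning).

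The low Klf1 counts outside the erythroid-like class were set beside those of other erythroid genes. There were 0.104 Klf1 UMIs per UMI of Car1 (carbonic anhydrase 1, an early erythroid gene and one of the gate's markers) in erythroid-like cells (0.102 to 0.106). In monocyte-like cells the ratio was 0.105 (0.0838 to 0.131) and in HSC-like cells 0.108 (0.0739 to 0.153), and the intervals of the lymphoid-primed progenitor-like and neutrophil-like classes also held the erythroid value. The ratio was higher in megakaryocyte-like cells, at 0.236 (0.183 to 0.301), and in basophil or mast cell-like cells, at 0.294 (0.233 to 0.370). Against summed UMIs of the Klf1 target genes, none of them gate markers, the ratio was 0.112 in erythroid-like (0.110 to 0.114), 0.197 in megakaryocyte-like (0.153 to 0.251) and 0.291 in basophil or mast cell-like cells (0.230 to 0.365). None of the other 4 classes had an interval above the erythroid-like ratio, and monocyte-like cells were below it, at 0.0740 (0.0591 to 0.0916). Of the 1230 target UMIs in monocyte-like cells, 558 were of the cell cycle factor E2f2, against 1706 of 105071 in erythroid-like cells. E2f2 stood at 1.30-fold the other cells in monocyte-like cells, so that lower ratio is not one to erythroid genes alone. The ratio without E2f2 was not computed. The part of free RNA in droplets in the low Klf1 counts was not tested.

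Most known Klf1 targets were also high in erythroid-like cells. Of 12 target genes fixed as a list, 11 had a row, Ahsp is not analysed here, and 10 were called higher and 1 lower in erythroid-like cells, with a median fold of 51.1 against 0.863 over all genes. Ank1 (ankyrin, of the red cell membrane skeleton) was 51.8-fold higher (45.2 to 59.6) and the cell cycle factor E2f2 3.60-fold (3.35 to 3.87). The exception was Bcam, a cell adhesion gene, with 2 UMIs in the class. In the other 6 classes 9 to 11 of the 11 targets were called lower, where 10.7% to 40.4% of all genes were. These classes were set against cells that include the erythroid-like class, so the lower calls largely restate its high level. Bcam was called higher in HSC-like cells, 33.0-fold (19.7 to 55.7) on 35 UMIs, at 6.76 CPM and under the level set for naming.

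Klf3, the CtBP-dependent repressor, stood at 83.5 CPM in erythroid-like cells, 49.5 in lymphoid-primed progenitor-like, 42.7 in HSC-like, 19.7 in basophil or mast cell-like, 18.9 in megakaryocyte-like, 18.1 in monocyte-like and 14.7 in neutrophil-like cells. The erythroid-like level was 3.95-fold that of all other cells (3.74 to 4.16). Lymphoid-primed progenitor-like and HSC-like cells did not differ beyond counting error, with a ratio of 1.16 (0.950 to 1.42), and together they stood apart from the 4 classes below them, since HSC-like cells were 2.16-fold above the next class (1.71 to 2.75). The annotation places another gene, C230096K16Rik, over Klf3 on the same strand. Of its co-repressors, Ctbp1 was higher in erythroid-like cells, 1.86-fold (1.80 to 1.91), and Ctbp2 lower, at 0.351 of the other cells (0.313 to 0.393). Ctbp2 was called higher in megakaryocyte-like cells, 1.82-fold (1.61 to 2.06), where Klf3 was at 0.491 of the other cells (0.414 to 0.577).

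Klf2, Klf4 and Klf6 were low in erythroid-like cells. Klf2 stood at 4.18 CPM (3.57 to 4.87) and Klf4 at 2.82 CPM (2.32 to 3.39), 0.0604 and 0.0482 of the level in all other cells. Klf6 stood at 23.3 CPM, 0.191 of the other cells (0.179 to 0.204). It was at 0.1255 with a lead of 3 markers and at 0.310 with cells weighted equally, and 109 of the 1314 cells lay in a cluster at 321 CPM, against 5.80 and 18.1 CPM in the 2 clusters that held most of the class. Klf13 was at 91.7 CPM, 1.32-fold the other cells (1.26 to 1.37), which is under the fold required for a call.

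In monocyte-like cells Klf4 and Klf2 were called higher, Klf1 and Klf3 lower, and Klf6 and Klf13 neither. Klf4 stood at 176 CPM (171 to 182), then 29.9 in HSC-like, 13.4 in lymphoid-primed progenitor-like, 12.9 in megakaryocyte-like, 11.8 in basophil or mast cell-like, 4.16 in neutrophil-like and 2.82 in erythroid-like cells. The monocyte-like level was 8.32-fold that of all other cells (7.92 to 8.74), 5.89-fold that of HSC-like cells (5.02 to 6.96) and 42.3-fold that of neutrophil-like cells (34.1 to 53.2), the other class of the myelomonocytic branch. The neutrophil-like level rested on 84 UMIs, of which 47.6% lay in 10 cells, and the 2 neutrophil-named clusters held 1.47 and 0.151 CPM, so this ratio depends on the gate beyond its interval. The 3 middle levels did not differ from each other beyond counting error between neighbours. After thinning, Klf4 was seen in 49.4% of monocyte-like cells, 10.8% of HSC-like cells and 1.83% of neutrophil-like cells (75.2%, 14.98% and 4.83% without thinning). Median depth was 20311, 8369 and 21131 UMIs in those classes.

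Monocyte-like cells also carried genes of other lists. Of the 10 dendritic cell markers 4 reached 10 CPM and none was at 0, with a summed level of 704 CPM against 455 in all other cells. Of the 10 neutrophil markers 4 reached 10 CPM, Ngp and Ltf were at 0, and the sum was 4791 CPM against 5585 in all other cells. The part of these in the Klf4 level was not tested. Klf6 was at 1.23-fold the other cells (1.17 to 1.28), but at 0.830 both when each cell was weighted equally and with clusters in place of gates. Klf4 itself was among the 10 genes of highest fold in this class, although no marker list held it.

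Klf2 was the factor shared by the monocyte-like and HSC-like classes, at 122.5 CPM (118 to 127) and 119.5 CPM (110 to 129). The ratio of these was 1.03, with an interval of 0.940 to 1.12 that held 1. Lymphoid-primed progenitor-like cells had 74.1 CPM, megakaryocyte-like 56.9, basophil or mast cell-like 37.2, neutrophil-like 13.2 and erythroid-like 4.18, each step beyond counting error. Against all other cells Klf2 was 3.06-fold higher in monocyte-like cells (2.92 to 3.20) and 2.40-fold in HSC-like cells (2.21 to 2.60). With clusters in place of gates, the HSC-like fold was 1.48 (1.39 to 1.57) and no longer called.

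HSC-like cells were second to basophil or mast cell-like cells in Klf6. The median fold of all genes was 1.22 in this class. Klf2 and Klf6 were called higher, Klf1 lower, and Klf3, Klf4 and Klf13 neither. Klf6 stood at 242 CPM (229 to 256), 2.66-fold the other cells (2.51 to 2.82). Klf4 was at 0.673 of the other cells (0.570 to 0.790), just short of a call, and was called lower under 5 of the 10 alternatives. Against lymphoid-primed progenitor-like cells, HSC-like cells had 2.24-fold the Klf6 (2.01 to 2.51), 2.24-fold the Klf4 (1.62 to 3.14) and 1.61-fold the Klf2 (1.40 to 1.86), and 0.723 of the Klf13 (0.613 to 0.852). Against megakaryocyte-like cells Klf2, Klf3, Klf4 and Klf6 were each 2.05-fold to 2.32-fold higher.

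Over all 7 classes, 7 of the 42 pairs were called higher, 19 lower and 16 neither. Among all genes the share called higher ran from 5.29% (neutrophil-like) to 35.5% (HSC-like) by class. The share called lower ran from 10.7% (lymphoid-primed progenitor-like) to 40.4% (neutrophil-like). The share of pairs called higher lay inside the range for all genes. That of pairs called lower lay above it, and calls of 1 factor across classes are not independent. The seventh higher call was Klf6 in basophil or mast cell-like cells, at 476 CPM (458 to 495), 5.81-fold the other cells (5.56 to 6.06), where 12.5% of all genes were called higher and 18.2% lower. It exceeded the HSC-like level 1.97-fold (1.84 to 2.11). Below these, megakaryocyte-like (118 CPM), monocyte-like (114 CPM) and lymphoid-primed progenitor-like cells (108 CPM) did not differ beyond counting error between neighbours, and erythroid-like (23.3 CPM) and neutrophil-like cells (17.5 CPM) were lowest. In the basophil or mast cell-like class 3 of 7 eosinophil markers reached 10 CPM and none was at 0, with a sum of 1336 CPM against 115.5 in all other cells. Of the 10 T or innate lymphoid markers 3 reached 10 CPM, Cd3e, Cd3g and Il2rb were at 0, and the sum was 736 CPM against 325.5. Their part in the Klf6 level was not tested.

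Neutrophil-like cells were called lower for 5 of the 6 factors, all but Klf13, and higher for none, where 40.4% of all genes were called lower and 5.29% higher. In lymphoid-primed progenitor-like cells Klf1 and Klf4 were lower and none was higher (background 10.7% lower and 15% higher). In megakaryocyte-like cells Klf1, Klf3 and Klf4 were lower and none was higher (background 13% lower and 22.1% higher), although with clusters in place of gates Klf6 was called higher, 1.955-fold. Klf6 stood at 100.5, 173 and 321 CPM in the clusters named by the megakaryocyte list. Of the 309 cells of the last, the gate had put 109 into the erythroid-like class and 28 into the megakaryocyte-like class. Klf13 had no call in any class: its levels were 91.7 CPM in erythroid-like, 86.2 in monocyte-like, 84.8 in basophil or mast cell-like, 78.0 in lymphoid-primed progenitor-like, 67.5 in megakaryocyte-like, 56.4 in HSC-like and 54.9 in neutrophil-like cells. The annotation has 2 genes on the opposite strand over Klf13, Gm27252 and E030018B13Rik.

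Paralogue use was then described as the share of each factor among the UMIs of the 6. Counts from the 3 prime end do not scale with transcript length, but the capture of each gene is not known, so a share compares better between classes than between genes. In erythroid-like cells Klf1 made up 59.1% (58.4 to 59.8), Klf13 18.3% and Klf3 16.6%. In monocyte-like cells no factor reached that share: Klf4 held 33.8% (33.0 to 34.7), Klf2 23.5%, Klf6 21.9% and Klf13 16.5%. In HSC-like cells Klf6 held 48.7% (46.7 to 50.6) and Klf2 24.0%. Basophil or mast cell-like cells were the most uneven, with 73.5% Klf6 (72.0 to 74.9). In neutrophil-like cells Klf13 held 50.9% (48.8 to 53.0), at a summed level of the 6 of 107.9 CPM, against 284 to 648 CPM in the other classes. Megakaryocyte-like cells (41.5% Klf6, 23.7% Klf13, 20.0% Klf2) and lymphoid-primed progenitor-like cells (32.9% Klf6, 23.8% Klf13, 22.6% Klf2) had the same 3 leading factors. These 3 also led in HSC-like cells, with Klf13 at 11.3%, and in basophil or mast cell-like cells, with Klf13 at 13.1% and Klf2 at 5.75%.

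**Figure D2:**
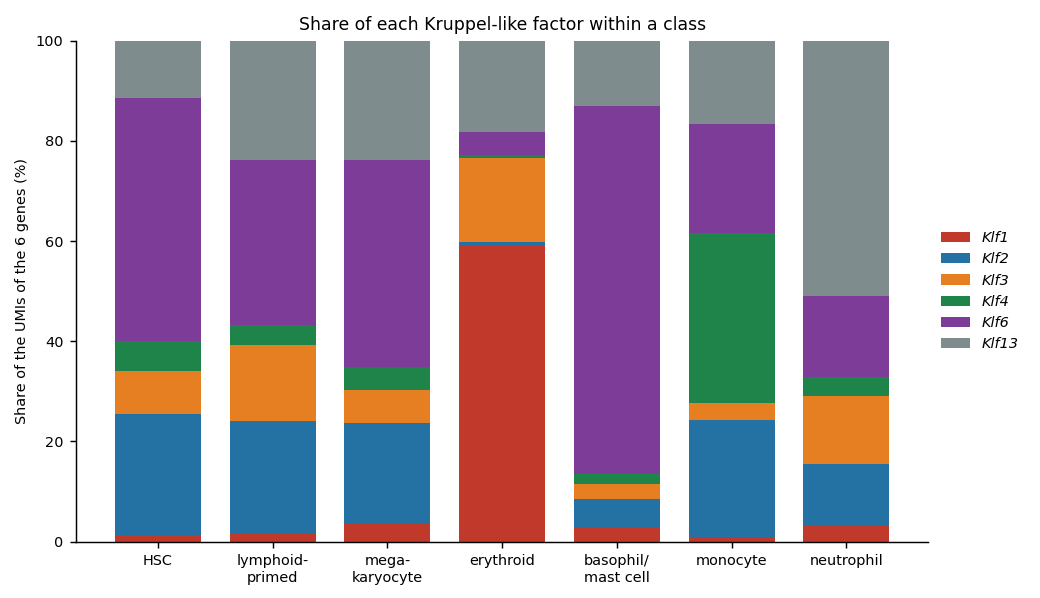
Share of each factor, in percent, of the UMIs of the 6 factors within each class. Klf1 fills 59.1% of the erythroid-like bar, Klf6 73.5% of the basophil or mast cell-like bar and Klf13 50.9% of the neutrophil-like bar.

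Because a gate cuts a continuum, the cells of a class were joined with the ungated cells and ordered by how many of the class's 10 markers were seen. Along the erythroid markers the factors changed places. With 0 markers seen (675 cells), Klf1 was at 2.67 CPM, Klf2 at 70.8, Klf4 at 56.1, Klf6 at 74.1, Klf3 at 14.9 and Klf13 at 65.8. Klf6 was highest at 3 markers (362 cells), at 185 CPM (173 to 197), where Klf1 was at 46.5 CPM (40.8 to 52.9). At 4 markers Klf1 (124 CPM) and Klf6 (147 CPM) were close, and at 5 markers Klf1 was at 215 CPM and Klf6 at 44.7 CPM. At 9 markers (135 cells) Klf1 was at 367 CPM (350 to 385), Klf13 at 126, Klf3 at 98.1, Klf6 at 7.10, Klf2 at 1.78 and Klf4 at 1.55. Klf3 levelled off between 96.5 and 98.3 CPM from 7 markers, while Klf1 and Klf13 went on to higher values. Median depth along this order went from 21350 UMIs at 0 markers through 11685 at 3 to 33436 at 9.

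Along the monocyte markers Klf4 stood at 10.4 CPM with 0 markers seen, 37.7 with 3, 121 with 5, 262 with 7 and 339 with 9 (21 cells). Klf2 was at 34.3 CPM with 1 marker and 174 with 9. Klf6 had a low point in between, 188 CPM with 0 markers, 53.4 with 3 and 151 with 9. Up to 3 markers Klf6 was thus the higher of Klf4 and Klf6, and from 5 markers Klf4 was. Along the HSC markers the range was narrower: Klf6 went from 86.4 CPM with 0 markers to 266 with 5 and 263 with 8 (37 cells), Klf2 was lowest at 2 markers (42.7 CPM) and at 140 CPM with 8, and Klf13 stayed between 49.9 and 68.7 CPM.

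The basophil or mast cell, neutrophil and megakaryocyte orders were added after the class levels had been seen. Along the basophil or mast cell markers Klf6 stood at 106 CPM with 0 markers and 735 with 9. Along the neutrophil markers Klf6 went from 211 CPM with 0 markers to 11.1 with 7, Klf2 from 95.2 to 6.47, and Klf4 from 62.1 to 3.70, while Klf13 stayed between 55.5 and 72.4 CPM. Along the megakaryocyte markers Klf6 was at 84.4 CPM with 0 markers, 196 with 2 and 55.3 with 8 (32 cells).

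**Figure D3:**
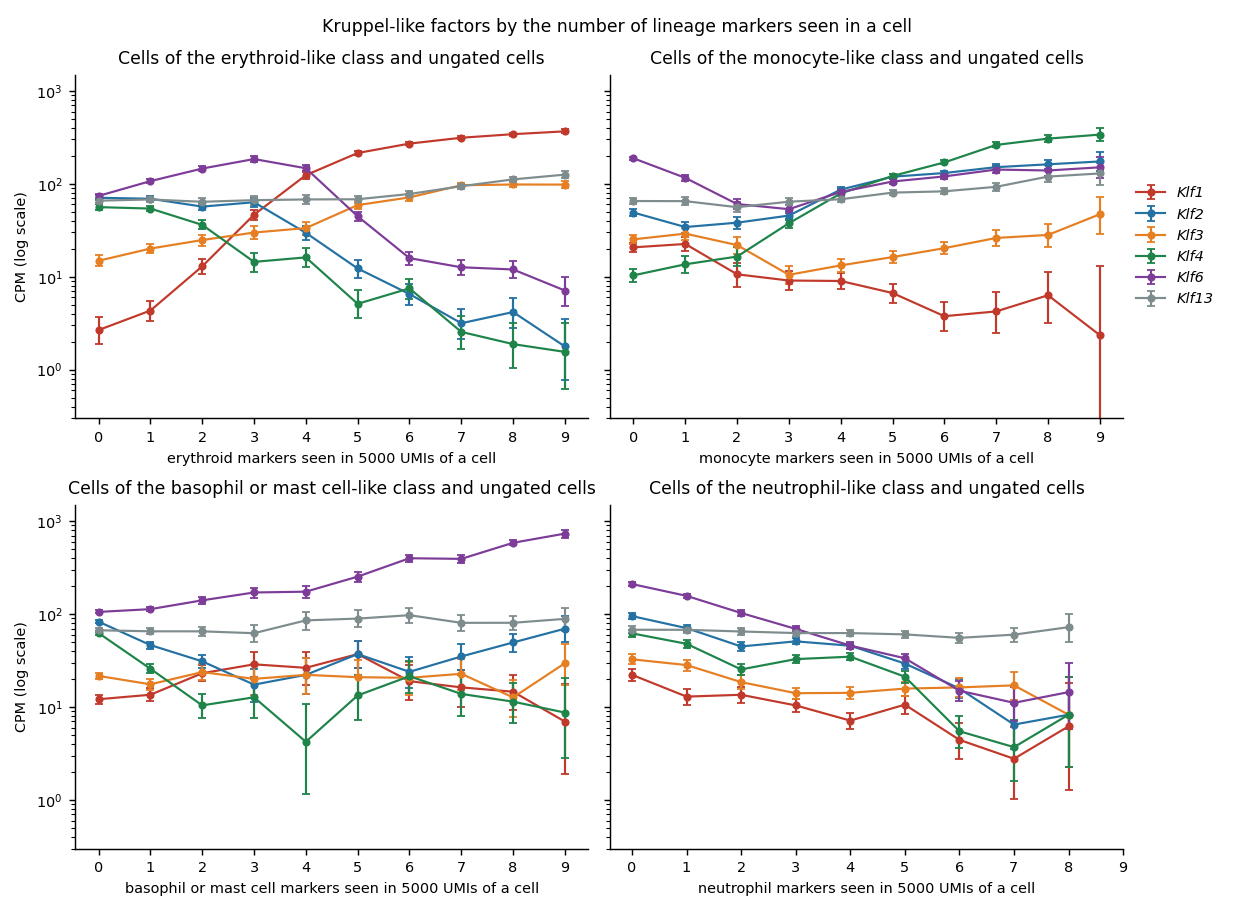
Level of each factor in CPM (log scale) against the number of lineage markers seen in 5000 UMIs of a cell, for the cells of a class joined with ungated cells, with exact 95% Poisson intervals. Klf6 is at 185 CPM with 3 erythroid markers and Klf1 at 367 CPM with 9, and Klf4 is at 339 CPM with 9 monocyte markers. Cells with fewer than 3 markers are all ungated and of mixed lineages.

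The factors were also read within single cells, in cells thinned to 5000 UMIs so that depth did not differ. Among erythroid-like cells, Klf6 was seen in 7.34% of the 940 cells with a Klf1 UMI (5.76 to 9.20) and in 20.6% of the 374 without (16.6 to 25.1). Klf3 was seen in 31.6% of cells with Klf1 (28.6 to 34.7) and 25.9% without (21.6 to 30.7), intervals that overlap. Among monocyte-like cells, Klf4 was seen in 62.4% of the cells with Klf2 (57.5 to 67.2) and 41.7% of those without (38.0 to 45.6), and Klf6 in 52.1% and 31.3%. Among HSC-like cells, Klf6 was seen in 67.1% of the cells with Klf2 (59.2 to 74.4) and 42.4% of those without (37.5 to 47.5), and Klf4 in 20.3% (14.3 to 27.4) and 7.07% (4.75 to 10.1). At this depth 3 or more of the 6 were seen in 26.4% of monocyte-like, 15.2% of HSC-like and 0.859% of neutrophil-like cells, and none in 60.6% of neutrophil-like cells. Cells of 1 class are not replicates of each other.

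Klf2 and Klf6 were higher within every class in cells rich in immediate early genes, a group induced within minutes by growth factors, stress or handling of cells. The 15 genes of this list summed to 9029 CPM in HSC-like, 6873 in basophil or mast cell-like, 4557 in megakaryocyte-like, 3745 in lymphoid-primed progenitor-like, 1495 in monocyte-like, 1029 in erythroid-like and 715 in neutrophil-like cells. In HSC-like cells 12 of the 15 were called higher and 1, Hspa1a, lower at 0 UMIs (its reads are hard to tell from those of its near-identical neighbour Hspa1b), with Egr1 at 8.62-fold (8.31 to 8.95) and Jun at 3.81-fold (3.74 to 3.89). In monocyte-like cells, with the Klf2 level of HSC-like cells, 2 were called higher, Atf3 and Hspa1a, and 9 lower.

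Within each class, cells above the class median of immediate early UMIs were set against the rest. Klf2 was higher in the upper cells of all 7 classes, from 2.14-fold in basophil or mast cell-like (1.60 to 2.88) to 3.61-fold in megakaryocyte-like cells (2.89 to 4.53). Klf6 was higher in all 7, from 2.30-fold in HSC-like (2.05 to 2.59) to 7.74-fold in erythroid-like cells (6.58 to 9.14). Klf4 was 4.18-fold higher in HSC-like (2.85 to 6.28), 6.14-fold in erythroid-like (3.94 to 9.85) and 1.67-fold in monocyte-like cells (1.56 to 1.77), and its interval held 1 in the basophil or mast cell-like and lymphoid-primed progenitor-like classes. Klf1 and Klf3 in erythroid-like cells were slightly lower in the upper cells, at 0.886 (0.852 to 0.922) and 0.846 (0.784 to 0.911). Klf1 was also lower in basophil or mast cell-like cells, at 0.539 (0.334 to 0.846). Klf3 was higher in lymphoid-primed progenitor-like (1.445, 1.075 to 1.944), megakaryocyte-like (1.44, 1.03 to 2.02) and monocyte-like cells (1.41, 1.16 to 1.73). For each of these 2 genes, the intervals in its remaining classes held 1. The part of the immediate early genes in the Klf2, Klf4 and Klf6 levels was not tested.

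**Figure D4:**
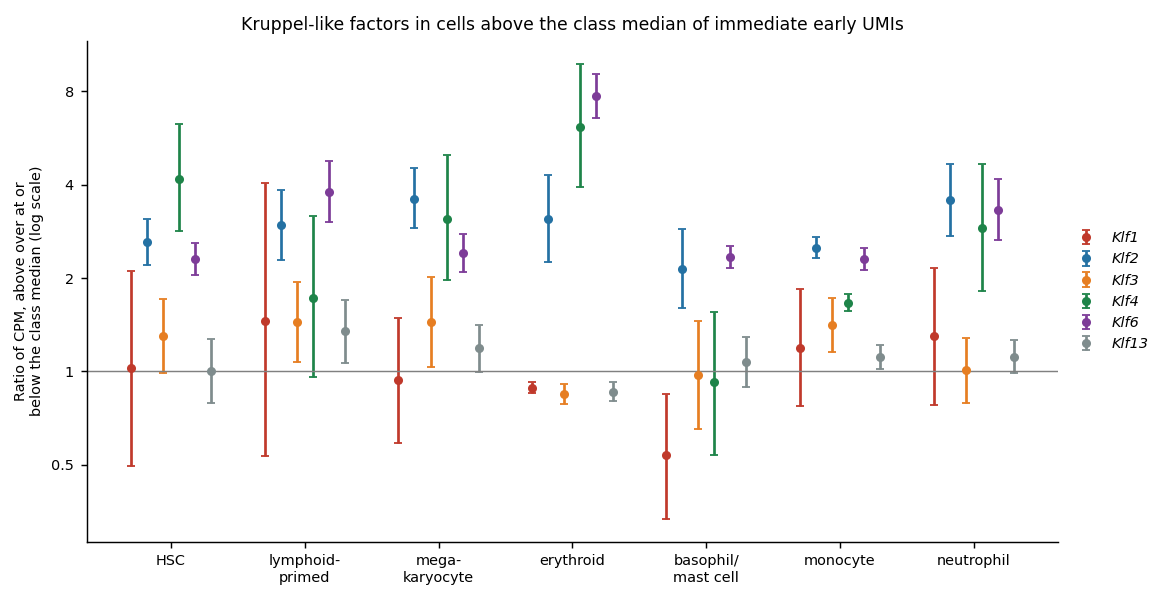
Ratio of CPM (log scale) in cells above to cells at or below the class median of immediate early UMIs, with exact 95% intervals, for each factor and class. Every point of Klf2 and Klf6 lies above 2, and the points of Klf13 lie between 0.861 and 1.35.

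Levels of the factors also differed with the proliferation genes, in directions that varied by class. The 10 S phase and 10 G2/M phase genes summed to 702 and 651 CPM in HSC-like cells and to 2548 and 2788 CPM in erythroid-like cells. In erythroid-like cells above the class median of these 20 genes, Klf13 was 1.76-fold higher (1.64 to 1.88), Klf3 1.496-fold (1.39 to 1.61) and Klf1 1.47-fold (1.42 to 1.53), and Klf6 was at 0.368 (0.318 to 0.425). In monocyte-like cells Klf4 was 1.69-fold higher in the upper cells (1.58 to 1.80) and Klf6 1.43-fold (1.32 to 1.55). In HSC-like cells Klf4 was at 0.564 (0.394 to 0.799) and Klf2 at 0.747 (0.632 to 0.881). The part of proliferation in these levels was not tested.

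The remaining Kruppel-like genes and the related Sp factors, which bind like elements, were read from the same comparisons. Of the other 11 Klf genes 8 had enough UMIs. In HSC-like cells Klf8, Klf9, Klf10 and Klf12 were called higher and Klf5 lower, where 35.5% of all genes were higher and 15.8% lower. Klf9, a glucocorticoid-responsive member, stood at 75.1 CPM, 3.28-fold the other cells (2.95 to 3.65), and Klf10, a TGF-beta induced member, at 36.1 CPM, 2.05-fold (1.76 to 2.38). Klf12 was 14.6-fold higher (9.41 to 22.2) on 35 UMIs, under the level set for naming and chosen after its value was seen. In basophil or mast cell-like cells 3 were higher and 1 lower (background 12.5% higher and 18.2% lower): Klf5 at 27.5 CPM, 8.90-fold (7.35 to 10.7), Klf7 at 49.8 CPM, 4.88-fold (4.27 to 5.56), and Klf10 at 32.6 CPM, 1.84-fold (1.57 to 2.14), with Klf9 at 0.552 (0.433 to 0.694). Klf7 was also higher in megakaryocyte-like cells, at 29.0 CPM and 2.72-fold (2.36 to 3.13). In erythroid-like cells Klf5, Klf11 and Klf16 were higher and Klf7, Klf8 and Klf12 lower (background 16.5% higher and 38.2% lower), with Klf16 at 21.1 CPM, 2.31-fold (2.11 to 2.53). In monocyte-like cells none was higher and Klf5, Klf9, Klf11, Klf12 and Klf16 were lower (background 10.4% higher and 23.8% lower). In neutrophil-like cells none was higher and 7 were lower, where 40.4% of all genes were lower.

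Of 9 Sp genes 4 had enough UMIs. Sp4 was higher in erythroid-like cells, 26.8 CPM and 2.91-fold (2.67 to 3.17), and with Sp1 in HSC-like cells, where Sp4 was 1.93-fold (1.61 to 2.30) and Sp1 1.58-fold (1.42 to 1.76). All 4 were lower in neutrophil-like cells, where 40.4% of all genes were lower. Of 10 co-factors that Kruppel-like proteins recruit or that degrade them, 3 were higher in HSC-like cells, a share no larger than the 35.5% of all genes: the acetyltransferases Crebbp at 1.95-fold (1.79 to 2.12) and Kat2b at 1.76-fold (1.47 to 2.08), and Fbxw7, a ubiquitin ligase subunit, at 1.57-fold (1.33 to 1.83). None was higher and 1, the ubiquitin ligase Wwp1, was lower in monocyte-like cells, at 0.654 (0.579 to 0.737), and Wwp1 was higher in erythroid-like cells, at 1.62-fold (1.499 to 1.74).

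Last, the genes most like each factor were ranked by Pearson correlation of log2(CPM + 1) over the 7 classes, among 10091 genes with at least 500 UMIs. The classes share 1 library and differ in depth and size, so this is a description. Nearest to Klf1 were Rfesd (0.991), C1qtnf12 (0.986), the iron transporter Slc11a2 (0.984), Memo1 (0.983) and the heme synthesis enzyme Alad (0.981). Alad stood at 389.5 CPM in erythroid-like and 33.7 to 53.5 CPM in the other classes. Nearest to Klf2 were Vwa5a (0.993), Rdm1 (0.984), Hsf2 (0.984), Usp12 (0.982) and Armh3 (0.974), and nearest to Klf3 were Map4k5 (0.979), Rfx2 (0.976), Zfp637 (0.973), Zfp800 (0.968) and Mtrr (0.968). Nearest to Klf4 were the calcium-binding protein gene S100a4 (0.985), Vhl (0.959), Rnd3 (0.946), Ugdh (0.935) and Mtmr14 (0.933); S100a4 stood at 255 CPM in monocyte-like, 58.1 in HSC-like and 3.05 in erythroid-like cells. Nearest to Klf6 were Zc3h7a (0.983), Flii (0.981), Phf20l1 (0.969), Klhl18 (0.969) and Arid3b (0.967), and nearest to Klf13 were E2f2 (0.963), Tcf19 (0.961), Sphk2 (0.960), Depdc1a (0.955) and Lbr (0.953). Among the factors themselves Klf2 and Klf4 were most alike (0.832), and Klf1 and Klf2 least (-0.724).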

How the data were processed

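Cells were a control lineage-negative, Kit-positive marrow sort, 1 sample. The deposited values are raw UMI counts for every barcode and gene, which the authors obtained by running Cell Ranger 6.0.2 on a 10x Chromium 3 prime library with the mm10-2020A transcriptome. The labels describe a bulk RNA kit instead. The study's cell filter (between 1000 and 50000 UMIs, between 1000 and 6500 genes, and under 7% mitochondrial UMIs) kept 7645 of 8817 barcodes (86.7%), with 1592 to 49991 UMIs and a median of 18696. Doublets were not removed in the main results.

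Each cell with at least 5000 UMIs was thinned to 5000 (random seed 1) and gated with 11 marker lists of 10 genes (7 for eosinophils); 99 shallower cells stayed ungated. The gate replaced the clustering of the study's methods because the comparison called for marker-gated cells. Levels used full counts. Intervals are exact, Poisson for levels, conditional binomial for folds and Clopper-Pearson for shares, from scipy 1.17.1 in Python 3.11.15. They cover counting error only.

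The rule for named genes took the 6 factors in every class, genes of the other lists at 10 CPM or more, and for each factor the 5 genes nearest in Pearson correlation. Bcam, Klf8, Klf11, Klf12, Atf3, Hspa1a and Hspa1b are named outside this rule, since they stayed under 10 CPM in every class described. The 6 factors and all lists were chosen with earlier results of these data known. Gene models were from GENCODE M21. The interval code was run on simulated counts of 13479 genes with 200 changed. The counts were drawn from the Poisson model that the intervals assume, without clumping of UMIs in single cells. The run therefore checks the code and cannot tell how well the intervals suit these data. In the erythroid-like comparison 95.4% of intervals held the simulated fold, and 96% of 50 genes set 2-fold higher had an interval past 1. In the HSC-like comparison this held for 94% of genes set 2-fold higher, 70% of those set to 0.5 and 78% of those set to 0.25, so fewer decreases can be seen there. Alternatives were 10, run with scanpy 1.11.5 where clusters or doublets were needed.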

Additional observations from a re-analysis of the deposited data

Results flagged for a closer look

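The barcodes that the study's cell filter removed enter no comparison of the report. In these 1172 barcodes Klf1 stood at 184 CPM (178 to 191) against 84.7 CPM in the cells kept, Klf3 at 70.9 CPM against 37.5, and Klf13 at 85.1 CPM against 75.5. Klf2 was at 22.7 CPM against 52.2, Klf4 at 17.1 CPM against 43.9, and Klf6 at 42.9 CPM against 96.0. All 6 were above the level that 3 UMIs give. In the 213 barcodes at or over an upper limit Klf1 was at 216 CPM (208 to 224), and in the 909 with a mitochondrial share of 7% or more it was at 77.3 CPM (68.4 to 87.1).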

How the results depend on the processing

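Of 420 folds recomputed (42 pairs under 10 alternatives), 407 kept their call and 13 did not. The erythroid-like fold of Klf1 was 28.9 with at least 4 markers, 24.4 with a lead of 3, 26.4 without thinning, 25.4 with all barcodes of at least 5000 UMIs, 25.9 with cells weighted equally, 34.7 without Scrublet calls and 34.9 with Leiden clusters. The monocyte-like fold of Klf4 was 7.67 with a lead of 3, 8.90 without thinning, 7.39 with equal weights, 8.91 without Scrublet calls and 5.62 with clusters. The HSC-like fold of Klf2 was 1.97 with equal weights and 1.48 with clusters. Of the pairs of a factor with the erythroid-like, monocyte-like or HSC-like class, 5 or 6 were called higher and 6 or 7 lower. Klf6 in lymphoid-primed progenitor-like cells turned to 0.903 without thinning and 0.803 with equal weights; equal weights also gave Klf6 0.864 in megakaryocyte-like and 0.830 in monocyte-like cells. Clusters gave 0.830 for Klf6 and 0.995 for Klf13 in monocyte-like cells and 0.966 for Klf3 in lymphoid-primed progenitor-like cells. Values that moved over 1.5-fold with no change of call were Klf4 in neutrophil-like cells (from 0.0832 to 0.0134 at the lowest), Klf6 in erythroid-like cells (from 0.191 to 0.1255 and 0.310), Klf1 in megakaryocyte-like cells (0.308 with clusters), Klf2 and Klf6 in neutrophil-like cells (0.145 and 0.105 without thinning), Klf1 in HSC-like cells (0.0491 with all barcodes), Klf1 in monocyte-like cells (0.0626 with equal weights), and Klf2 in erythroid-like and Klf3 in monocyte-like cells (0.0951 and 0.281 with clusters). The clusters named by the megakaryocyte list included 309 cells with Klf1 at 82.3 CPM, against 10.6 and 21.2 CPM in the others of that name. The gate had put 109 of those cells into the erythroid-like class and 28 into the megakaryocyte-like class. The causes of these moves were not tested. Equal weights carry no counting interval, so those calls rest on the fold alone. Scrublet marked 265 cells (3.47%), from 0.361% of HSC-like to 6.41% of basophil or mast cell-like cells. No paired analysis was possible because there is 1 library. The limits are 1 library without replicates, gates that hold mixed cells, low counts of Klf1 and Klf4 in several classes, and HSC-like cells that are shallower than the rest.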

Other observations

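Clustering the cells without the 6 factors gave 20 clusters, and these are described with no test. The highest Klf4 and Klf2 levels were not in a monocyte-named cluster but in 266 cells led by Cd74, H2-Aa, H2-Eb1 and H2-Ab1, genes of antigen presentation, which the dendritic marker list named. Klf4 stood there at 351 CPM and Klf2 at 306 CPM, against 214.5 and 142 CPM in the monocyte-named cluster of 698 cells led by Lyz2 and Lgals3. Of the 266 cells the gate had put 111 into the monocyte-like class, 7 into the dendritic-like class and 147 into none.

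A cluster of 309 cells led by Apoe and Clec4d, named by the megakaryocyte list, held Klf6 at 321 CPM together with Klf1 at 82.3 CPM. The gate had put 109 of these cells into the erythroid-like class, 28 into the megakaryocyte-like class and 169 into none. The 657 cells of the erythroid cluster led by Hba-a1 had Klf6 at 5.80 CPM and Klf1 at 359 CPM.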
